A study of Drosophila melanogaster with 2 samples.

Results

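The programmed cell death genes described here are rpr, hid, grim, skl, Diap1, Dronc, Drice, Dcp-1 and Dark of Drosophila melanogaster. They were chosen by symbol from their place in the apoptotic pathway, and all 16 of their listed transcripts were taken. All 9 genes were found among the 14001 genes measured. RNA was sequenced from larvae of the third instar, the last before metamorphosis, that were homozygous for HP1c f04929, an allele of a chromodomain protein gene of the HP1 family. The larvae were kept at 25 °C and about 70% humidity, and 2 libraries were numbered as replicates of this genotype. No other genotype was analysed here, so the values describe these mutant larvae and the spread between their libraries, and none of them is an effect of the allele. The labels do not give the sex, the number of larvae per library or whether the libraries came from separate cultures, so the spread may be partly technical.

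In the fly, dying is held in check by Diap1, a ubiquitin ligase that binds caspases, the proteases that take a dying cell apart. The IAP antagonists encoded by rpr, hid, grim and skl bind Diap1 and free the initiator caspase Dronc, which assembles on the adaptor Dark into the apoptosome and then cleaves the effector caspases Drice and Dcp-1. At metamorphosis the steroid hormone ecdysone drives transcription of rpr and hid in larval tissues that are then destroyed, such as the salivary glands and the midgut. The larvae sampled here precede that stage, and in whole animals any dying cells are mixed with all other tissues.

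The libraries held 39745145 and 45177298 estimated reads in replicates 1 and 2. Levels are given in TPM, a scale that divides reads by transcript length and so can be compared between genes. A count of 3 reads on 1000 effective bases corresponded to 0.0849 TPM in replicate 1 against 0.0640 TPM in replicate 2. The intervals in brackets are exact Poisson 95% intervals of the reads and cover counting error only. Entries named as rRNA took 12.1% and 2.55% of the reads of replicates 1 and 2. The larval markers of salivary gland, fat body, gut and cuticle were all detected, and all 5 genes of adult yolk and eggshell lay under 1 TPM in both libraries. HP1c itself had 25 and 42 reads, which do not check the genotype label without another genotype to set them against.

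All 9 death genes reached 1 TPM in both libraries, as did 77.9% of all genes. Their mean levels ranged from 1.67 TPM for grim to 160 TPM for Diap1, with a median of 13.2 TPM, beside a median of 8.20 TPM over all genes. The inhibitor was the most abundant, the caspases Drice and Dronc came next, and the antagonists hid, skl and grim were at the low end. In bulk RNA of whole larvae, fewer cells expressing a gene and less RNA per cell cannot be told apart.

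**Figure D1:**
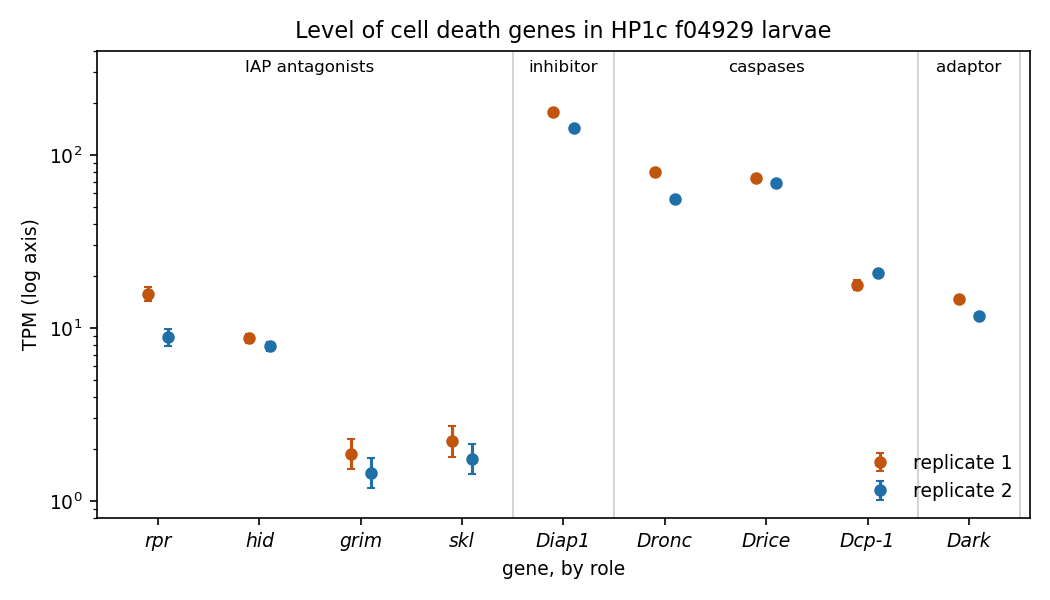
TPM (log axis) of the 9 genes, grouped by role, with 1 point per library and exact Poisson 95% intervals as bars. Diap1 stood above 140 TPM in both libraries and all 4 IAP antagonists stood below 16 TPM.

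Among the antagonists, rpr was the most abundant per length. The gene rpr (FBgn0011706, chromosome arm 3L, 18397535 to 18398435 on the minus strand of BDGP6) has a single exon and encodes 65 residues. It stood at 15.7 TPM (14.3 to 17.3, 420 reads) in replicate 1 and 8.84 TPM (7.88 to 9.88, 310 reads) in replicate 2. The intervals did not overlap, and the mean was 12.3 ± 4.87 TPM (SD, n = 2), the widest relative spread of the 9 genes, 39.7% of the mean.

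The gene hid (FBgn0003997, 3L, 18167745 to 18185641, minus strand), whose product also acts at mitochondria, encodes 410 residues. It stood at 8.72 TPM (8.23 to 9.22, 1193 reads) in replicate 1 and 7.83 TPM (7.41 to 8.28, 1259 reads) in replicate 2. Its mean of 8.27 ± 0.626 TPM lay below that of rpr, although hid had more reads than rpr in both libraries, because its longer transcript collects more reads at the same level. In replicate 2 the interval of hid overlapped that of rpr.

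The other 2 antagonists were scarce. The gene skl, also called sickle (FBgn0036786, 3L, 18438561 to 18439942, minus strand), a single-exon gene for 108 residues, stood at 2.22 TPM (97 reads) in replicate 1 and 1.75 TPM (101 reads) in replicate 2. The gene grim (FBgn0015946, 3L, 18302719 to 18304417, minus strand), a single-exon gene for 138 residues, stood at 1.88 TPM (103 reads) and 1.46 TPM (106 reads). Their means of 1.99 ± 0.330 and 1.67 ± 0.293 TPM (SD, n = 2 each) were not separated. The values of the pair overlapped across the libraries and the counting intervals overlapped in each library, although skl was the higher in both. The exon of grim overlaps 2 annotated non-coding genes, 749 bases with asRNA:CR45974 on the opposite strand and 541 bases with lncRNA:CR45975 on its own strand. Neither was among the measured genes, so reads from them may be counted under grim.

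The 4 antagonist genes lie in 1 stretch of 272 kb on 3L, all on the minus strand. Gaps of 117 kb between hid and grim, 93.1 kb between grim and rpr and 40.1 kb between rpr and skl separate them. Of 18 annotated genes and elements in the stretch, 8 were measured, and the 4 that are not antagonists had no common level. CG7320, between hid and grim, stood at 10.6 and 11.3 TPM in replicates 1 and 2. CG13700 and CG5103, close to grim on the same strand, stood at 5.98 ± 0.660 and 3.60 ± 0.178 TPM. The chemosensory gene CheA75a had 0 reads in both libraries, which allows up to 0.153 TPM in replicate 1 and, at its greater depth, 0.117 TPM in replicate 2. These neighbours were named for their position. Levels of the 4 antagonists alone alternated along the stretch, with rpr and hid above grim and skl. The measured genes together had no ordered trend from one end to the other.

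**Figure D2:**
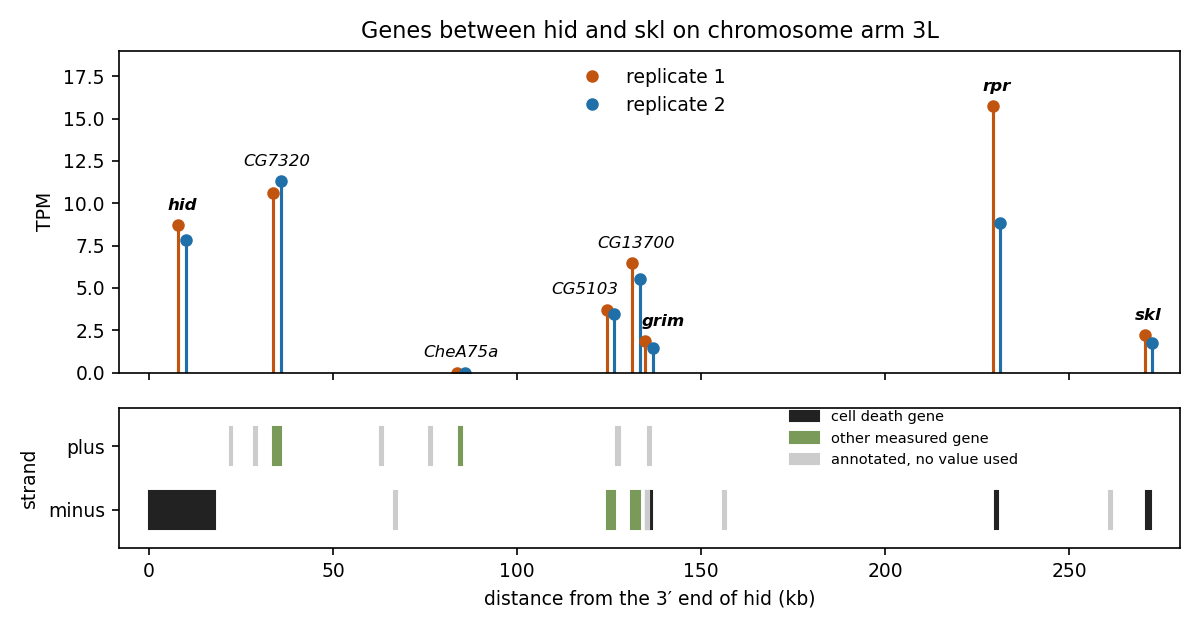
Upper plot, TPM of the measured genes between hid and skl in each library, set 1 kb to either side of the middle of the gene for visibility, and lower plot, position and strand of every annotated gene, against the distance in kb from the 3′ end of hid (genes under 0.8 kb are drawn at 0.8 kb). The highest points are rpr in replicate 1 at 15.7 TPM and CG7320 in replicate 2 at 11.3 TPM.

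Transcripts of the inhibitor exceeded those of every antagonist many times over. Diap1 (FBgn0260635, 3L, 16038410 to 16051034, minus strand) stood at 176 TPM (173 to 179, 11387 reads) in replicate 1 and 143 TPM (141 to 146, 12170 reads) in replicate 2. That placed it 644th and 726th in abundance of all 14001 genes. Summed over rpr, hid, grim and skl, antagonist transcripts made up 28.5 TPM in replicate 1 and 19.9 TPM in replicate 2, or 16.2% and 13.9% of the Diap1 level in the same library. The mean share was 15.0% ± 1.65 (SD, n = 2). Within this sum the makeup differed between the libraries, with rpr at 55.1% and 44.4% of it and hid at 30.5% and 39.4% in replicates 1 and 2.

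The Diap1 locus has 6 annotated transcripts that share 1 coding sequence of 438 residues and a 3′ untranslated region of 262 bases. They differ in where they start and in the 5′ untranslated region, which runs between 175 and 725 bases. Their 5 annotated start sites are spread over 10499 bases. Most of the Diap1 level was assigned to Diap1-RA, at 125 TPM in replicate 1 and 92.4 TPM in replicate 2, or 70.8% and 64.4% of the gene. Diap1-RB, whose start site lies 3825 bases upstream of that of RA, had 27.2 and 29.2 TPM (15.4% and 20.4%) and Diap1-RC, from a site downstream of that of RA, 18.6 and 16.8 TPM (10.5% and 11.7%). The other 3 transcripts, Diap1-RD, Diap1-RE and Diap1-RF, had means of 3.01, 1.95 and 0.393 TPM. The order RA, RB, RC was thus the same in both libraries, while the share assigned to RA was lower and that to RB higher in replicate 2. As the transcripts differ only in their 5′ part, this split rests on how the estimator shared the reads. An antisense gene, asRNA:CR45889, overlaps 347 exonic bases of Diap1 and was not among the measured genes.

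**Figure D3:**
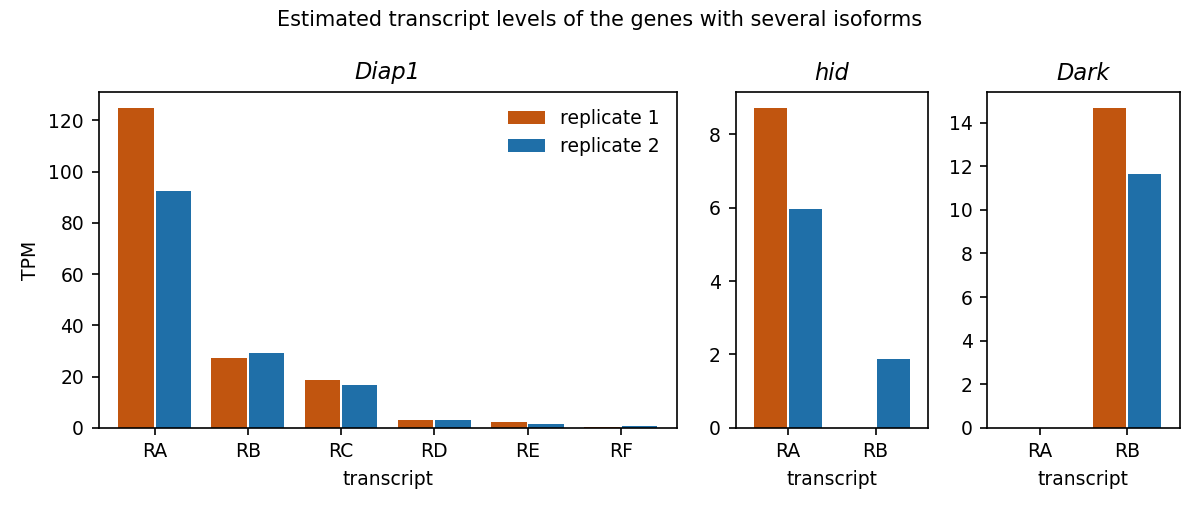
TPM per annotated transcript of Diap1, hid and Dark in replicates 1 and 2, each panel with its own axis from 0. Diap1-RA was the most abundant Diap1 transcript in both libraries, hid-RB had a value in replicate 2 only, and all Dark reads were assigned to Dark-RB.

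Isoform assignment differed most for hid. Its 2 transcripts start at the same base, have the same coding sequence and differ in the 3′ untranslated region, of 2266 bases in hid-RA and 438 bases in hid-RB. In replicate 1 hid-RA held all of the level, at 8.72 TPM, and hid-RB was listed at 0 reads. In replicate 2 hid-RA stood at 5.96 TPM and hid-RB at 1.87 TPM (179 reads), 23.9% of the gene and at least 46.1-fold higher than a floor of 3 reads in replicate 1. Since hid-RB lies wholly inside hid-RA, the split rests on how the estimator shared the reads, and a listed 0 can be a failed estimate. With all hid reads placed on hid-RA, the level of hid was 8.72 TPM in replicate 1 and 6.95 TPM in replicate 2. Of 15 death gene transcripts with at least 10 reads on average, 2 were at least 2-fold apart between the libraries, hid-RB and Diap1-RF (9.76 and 63.8 reads in replicates 1 and 2), where 19.5% of all such transcripts were.

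The initiator caspase Dronc and the effector caspase Drice had similar levels, and the second effector, Dcp-1, was several times scarcer. Dronc (FBgn0026404, 3L, 9968479 to 9971002, plus strand, 450 residues) stood at 79.9 TPM (77.7 to 82.0, 5277 reads) in replicate 1 and 55.5 TPM (54.0 to 57.1, 4846 reads) in replicate 2. Drice (FBgn0019972, 3R, 29799658 to 29801584, plus strand, 339 residues) stood at 73.2 TPM (71.1 to 75.3, 4608 reads) and 68.4 TPM (66.7 to 70.2, 5693 reads). Dronc was therefore the higher of the pair in replicate 1 and Drice in replicate 2, and their means of 67.7 ± 17.2 and 70.8 ± 3.36 TPM (SD, n = 2 each) cannot be ordered. On the TPM scale as deposited, Drice had the smallest spread of the 9 genes, 4.74% of its mean, while that of Dronc was 25.5%. With rRNA entries left out of the TPM total, Drice stood at 79.4 and 69.4 TPM in replicates 1 and 2. Dcp-1 then stood at 19.2 and 21.0 TPM, a smaller relative spread than that of Drice.

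Dcp-1 (FBgn0010501, 2R, 23551313 to 23553547, plus strand, 323 residues) stood at 17.7 TPM (16.6 to 18.8, 1004 reads) in replicate 1 and 20.7 TPM (19.7 to 21.7, 1548 reads) in replicate 2. It was the 1 death gene with the higher TPM in replicate 2. Drice exceeded it 4.13-fold and 3.31-fold in replicates 1 and 2. The Dcp-1 exons overlap pita, a zinc finger protein gene on the opposite strand, by 239 bases, and pita stood at 12.8 and 15.0 TPM. Summed effector transcripts over Dronc came to 1.14 in replicate 1 and 1.61 in replicate 2, a mean of 1.37 ± 0.331. Diap1 transcripts were close to equal in number to those of the 3 caspases together, at 1.03 and 0.991 times their sum in replicates 1 and 2, while single caspases varied more against Diap1, with Dronc at 45.3% and 38.7% and Dcp-1 at 10.1% and 14.4% of its level.

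Transcripts of the adaptor were fewer than those of the caspase it activates. Dark, the fly counterpart of Apaf-1 (FBgn0263864, 2R, 17020027 to 17026703, plus strand), stood at 14.7 TPM (14.1 to 15.3, 2426 reads) in replicate 1 and 11.7 TPM (11.2 to 12.1, 2553 reads) in replicate 2. Dronc was 5.44-fold and 4.76-fold more abundant than Dark in the same library. Against Diap1 the adaptor had one of the steadiest shares, 8.33% and 8.13%. All reads were assigned to Dark-RB, which encodes 1440 residues. Dark-RA, annotated with a coding sequence of 531 residues, had 0 reads in both libraries, a value that also rests on the sharing of reads with Dark-RB. The Dark exons overlap asRNA:CR44390 on the opposite strand by 2779 bases, and that gene was not among the measured ones.

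Ranked by mean TPM, the order was Diap1, Drice, Dronc, Dcp-1, Dark, rpr, hid, skl and grim. Neighbours whose library values overlapped were Drice and Dronc, Dark and rpr, and skl and grim. The steps from Diap1 to Drice (2.41-fold and 2.10-fold in replicates 1 and 2), from Dronc to Dcp-1 (4.51-fold and 2.68-fold) and from hid to skl (3.93-fold and 4.47-fold) were each larger than the spread between the libraries. The step from Dcp-1 to Dark was small but had the same direction in both, at 1.21-fold and 1.77-fold, and that from rpr to hid was 1.80-fold and 1.13-fold.

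The libraries were next set against each other after TMM scaling, which aligns the bulk of the genes. Counting intervals of these ratios are exact Clopper-Pearson intervals, and genes averaging 10 reads or more were called apart from a 2-fold difference upwards, if the interval also left out 1. None of the 9 death genes was at least 2-fold apart, where 5.42% of 12206 tested genes were. With 1 group of 2 libraries no test over replicates exists, and this is a measure of spread and not of conditions. The largest ratio was that of rpr, 1.75-fold (1.51 to 2.04) higher in replicate 1, and 92.0% of the tested genes had a smaller log2 ratio in size. Dronc was 1.41-fold (1.36 to 1.47) higher in replicate 1. At a 1.5-fold threshold rpr was the 1 death gene counted, where 12.2% of genes were.

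The direction was nevertheless shared by most of the death genes. Of 9, 8 had a log2 ratio above 0, that is, towards replicate 1, where 47.1% of the tested genes did, and their median was 0.30 beside -0.02 for all tested genes. The log2 ratios of hid, grim, skl, Diap1 and Dark lay close together, between 0.28 and 0.33, with those of rpr at 0.81, Dronc at 0.50, Drice at 0.07 and Dcp-1 at -0.25. For grim and skl the counting interval included a ratio of 1, as 103 and 106 reads and 97 and 101 reads do not resolve a difference of that size. Scaling by library size alone, in which rRNA entries were counted, lowered the median of all genes by 0.19 and turned the direction of Drice to -0.12. It left 7 of 9 above 0, where 24.8% of the tested genes were. Only Drice lay between the quartiles of all tested genes, -0.19 and 0.19.

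**Figure D4:**
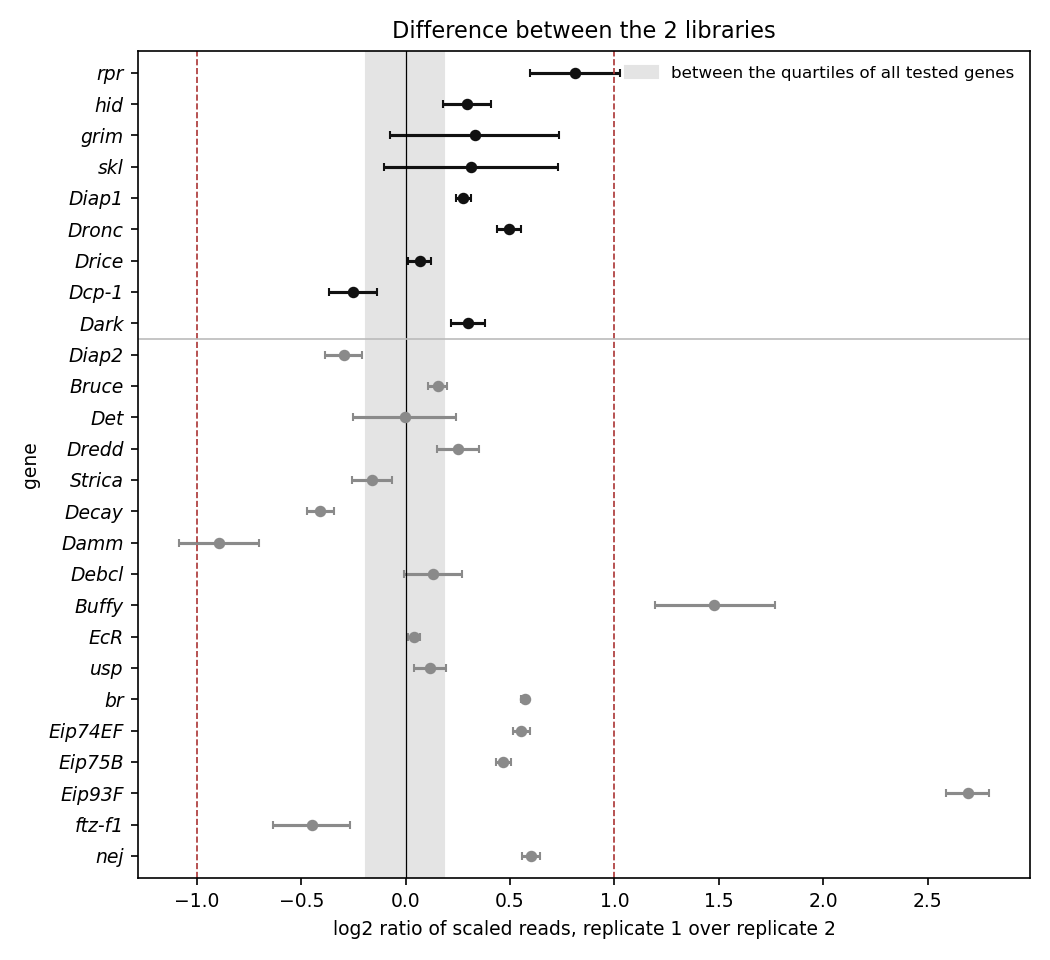
Log2 ratio of TMM-scaled reads, replicate 1 over replicate 2, with exact Clopper-Pearson 95% intervals, for the 9 death genes (black) and for other IAP, caspase, Bcl-2 and ecdysone factor genes (grey). The band spans the quartiles of all tested genes, -0.19 to 0.19, the dashed lines mark 2-fold, and only Buffy at 1.48 and Eip93F at 2.69 lie beyond them.

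The wider death pathway was measured through 10 further lists with 54 genes. Of these, 53 reached 1 TPM in both libraries, where 77.9% of all genes did. The exception was NimC4, an engulfment receptor gene, with 1 read in each library. The median log2 ratio of the 53 genes with enough reads was 0.01, 28 of them lay above 0, where 47.1% of all tested genes did, and 32 lay between the quartiles of all tested genes. With library size alone 13 of the 53 lay above 0, where 24.8% of all did. Buffy alone was at least 2-fold apart, where 5.42% of all tested genes were.

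The caspases outside the core set were also expressed. Decay, an effector-type caspase gene, was the most abundant, at 86.4 TPM in replicate 1 and 113 TPM in replicate 2, which is above Dronc and Drice in both. Dredd, the caspase of the immune deficiency pathway, stood at 28.4 and 23.6 TPM, and Strica, a caspase with a long serine and threonine rich prodomain, at 17.9 and 19.8 TPM. Damm stood at 10.9 TPM in replicate 1 and 20.0 TPM in replicate 2, 1.86-fold higher in replicate 2 and so opposite in direction to rpr and Dronc. With library size alone Damm also passed 2-fold. Of the 7 caspase genes, Dronc, Drice and Dredd thus had the higher scaled reads in replicate 1, Drice only under TMM or DESeq2 scaling, and Dcp-1, Strica, Decay and Damm had them in replicate 2.

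Other inhibitors of the IAP type were far below Diap1. Diap2, which acts chiefly in immune signalling, stood at 24.4 and 29.3 TPM in replicates 1 and 2. Bruce, a giant ubiquitin-conjugating protein with a BIR domain, and Det, the fly Survivin, had means of 13.4 ± 1.24 and 13.7 ± 0.0670 TPM (SD, n = 2 each). The Bcl-2 family has 2 genes in the fly, and their ratios between the libraries differed. Debcl, which promotes death, stood at 14.0 and 12.5 TPM in replicates 1 and 2. Buffy, which is known to restrain it, stood at 10.2 TPM (323 reads) in replicate 1 and 3.62 TPM (150 reads) in replicate 2, 2.79-fold (2.29 to 3.41) higher in replicate 1.

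Genes that act on Diap1 or Dronc included some of the most abundant of the pathway. The ubiquitin-conjugating enzyme gene eff, whose product promotes Diap1 turnover, had a mean of 446 ± 29.5 TPM, and eIF3m, also known as Tango7, a Dronc cofactor, one of 135 ± 0.830 TPM. The ubiquitin protease gene scny had 64.0 TPM in replicate 1 and 38.5 TPM in replicate 2, 1.57-fold higher in replicate 1. The F-box gene morgue, another Diap1 antagonist, had a mean of 13.0 ± 0.495 TPM. The gene fkh, a transcription factor that restrains rpr and hid in salivary glands, stood at 24.8 and 19.7 TPM. Of the mitochondrial list, Cyt-c-p, the somatic cytochrome c gene, was the highest at 108 ± 3.53 TPM and EndoG the lowest at 4.41 ± 0.225 TPM.

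Upstream signals were measurable at moderate levels. The death ligand gene egr stood at 28.5 and 29.9 TPM in replicates 1 and 2, its receptor genes grnd and wgn had means of 23.1 ± 0.588 and 11.3 ± 1.54 TPM, and the JNK gene bsk stood at 47.7 and 47.5 TPM. Puc, a phosphatase gene induced by JNK, stood at 26.5 and 24.6 TPM. The damage response genes p53 and lok stood lower, with means of 5.73 ± 0.622 and 7.90 ± 0.996 TPM. Of the same list, mei-41 and tefu were lower still, at 1.53 ± 0.0674 and 3.93 ± 0.0663 TPM, whereas grp had 47.8 ± 5.64 TPM. None of the 16 genes of the JNK and p53 lists was 2-fold apart, where 5.42% of all tested genes were. In the Hippo list, 6 of 7 genes had log2 ratios above 0, where 47.1% of all tested genes did. The largest was that of mats at 0.52, but yki, the coactivator of Diap1 transcription, had -0.17. With library size alone sd and ex, at 0.00 and 0.16 under TMM, also lie below 0. That left 4 of 7 above 0, where 24.8% of all tested genes were.

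Genes for the fragments and corpses of dying cells differed widely in level. DNaseII, a lysosomal nuclease gene, had a mean of 51.0 ± 4.31 TPM, whereas the DNA fragmentation factor genes Drep4 and Drep1 had 9.83 ± 0.737 and 5.13 ± 0.224 TPM. Of the engulfment genes, the adaptor ced-6 stood at 150 ± 3.20 TPM, the scavenger receptor crq at 72.0 ± 2.02 TPM and the receptor drpr at 49.9 and 35.5 TPM in replicates 1 and 2. Many of these genes are used in healthy cells as well, so their levels are no measure of dying cells.

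**Figure D5:**
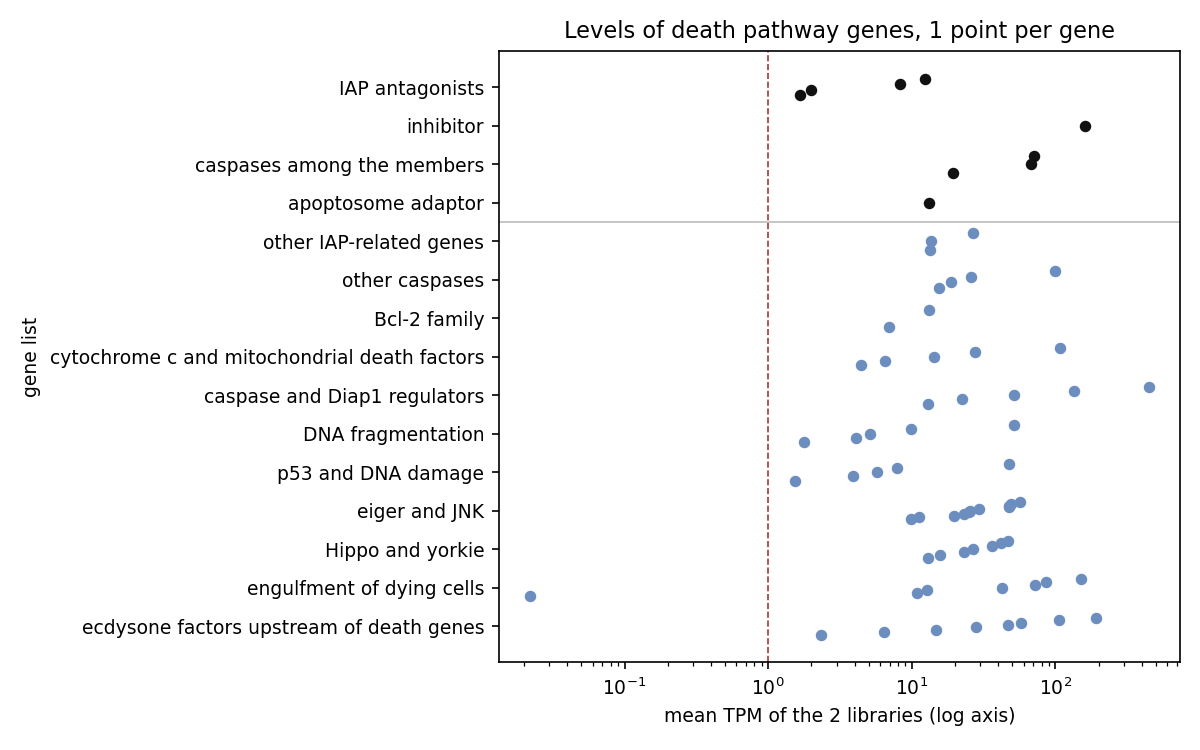
Mean TPM of the 2 libraries (log axis), 1 point per gene, for the roles of the 9 death genes (black) and for 11 further lists (blue), with a dashed line at 1 TPM. The inhibitor Diap1 at 160 TPM stands to the right of all 4 antagonists, and NimC4 in the engulfment list is the 1 gene below 1 TPM.

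Ecdysone factors known to act on death genes were set beside them. Of the 8 listed, 1, Eip93F, was at least 2-fold apart, where 5.42% of all tested genes were. Eip93F, a factor required for the death of larval salivary glands, stood at 11.0 TPM (4587 reads) in replicate 1 and 1.74 TPM (919 reads) in replicate 2, 6.46-fold (6.02 to 6.94) higher in replicate 1. The other 7 did not reach 2-fold. The broad gene br, Eip74EF and Eip75B had log2 ratios of 0.57, 0.55 and 0.47, and nej, the CBP gene, 0.60. EcR and usp, the receptor pair, had 0.04 and 0.12, and ftz-f1, a prepupal competence factor, had -0.45 at 1.99 and 2.65 TPM. The log2 ratios of EcR and usp turn negative with library size alone, since all ratios then fall by 0.19. Of the 8 factors, 7 had log2 ratios above 0 under TMM scaling and 5 with library size alone, where 47.1% and 24.8% of all tested genes did. Their part in the ratio of rpr was not tested.

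Tissue markers were compared in the same way. Of the 8 lists that follow, only Sgs3 and Sgs4 (higher in replicate 2) and Mhc (higher in replicate 1) were at least 2-fold apart. Of all tested genes, 5.42% were. The counts of log2 ratios above 0 stand beside 47.1% of all tested genes (24.8% with library size alone). The 6 salivary gland genes had a sum of 48533 TPM in replicate 1 and 96902 TPM in replicate 2, with 0 of 6 log2 ratios above 0. The 4 gut genes summed to 11286 and 15447 TPM, the 4 cuticle genes to 14859 and 23795 TPM and the 4 neuronal genes to 64.9 and 72.6 TPM, with 0 of 4 above 0 in each list. The median log2 ratio was -0.98 for salivary gland, -0.41 for gut and -0.60 for cuticle, and that for neurons, -0.11, lay between the quartiles of all tested genes. The 5 haemocyte genes, of cells that engulf corpses, summed to 126 and 150 TPM with 1 of 5 above 0. Fat body, muscle and imaginal disc lists had more log2 ratios above 0 than below under TMM scaling. The 6 fat body genes summed to 36464 and 30336 TPM with 4 of 6 above 0 (3 with library size alone). The 4 muscle genes summed to 1162 and 999 TPM with 4 of 4 above 0, and the 5 disc genes to 54.8 and 48.4 TPM with 5 of 5 above 0, of which 1 in each list stayed above 0 with library size alone. No gene of these 8 lists was at 0 reads. Their part in the ratios of rpr and Dronc was not tested, nor was that of the rRNA share. With rRNA entries left out of the TPM total, rpr stood at 17.1 and 8.97 TPM and Dronc at 86.6 and 56.3 TPM in replicates 1 and 2.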

How the data were processed

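Trizol was used to extract total RNA, and library preparation followed Illumina's methods, per the labels' protocols. The authors deposited, for each library, TPM and estimated counts per FlyBase transcript. The tools STAR 2.5.2, HTSeq 0.6.1, bcl2fastq 2.18.0.12, Picard and FastQC are listed, with no role, in the submitters' processing notes. The quantifier, annotation, build and strandedness remain not given in the sources used here.

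Of 30119 transcripts, 29992 matched Ensembl release 115 (BDGP6) by identifier, with equal length for 99.8%. The other 127 (0.0981% and 0.110% of reads) were left out. Values were summed per gene. Estimated counts were rounded and scaled with TMM (edgeR 4.0.16, R 4.3.3), and 0.5 reads were added for log2 ratios. Alternatives used DESeq2 1.42.0 size factors, library size alone (all matched reads, rRNA entries included), other filters and thresholds, CPM and single libraries. Calls were tested on simulated data that held counting error only, which does not cover further spread between libraries. With 1 group, no p-value was computed.

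The members, the 24 gene lists (114 symbols, all measured) and the alternatives were chosen with earlier results of these data known. Genes were named if they were members, on a list, overlapping a member or within the stretch holding the antagonists. A few lists hold an older symbol, matched through synonyms in RefSeq.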

Additional observations from a re-analysis of the deposited data

How the results depend on the processing

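All 9 genes stayed at or above 1 TPM with each library alone, where 11119 and 11029 of all 14001 genes did in replicates 1 and 2. At 5 TPM in both libraries 7 of 9 remained, and the share of all genes at that threshold was not computed. The count of genes at least 2-fold apart, 0 of 9, became 1 (rpr) at 1.5-fold, where 12.2% of all tested genes were counted. With single transcripts it was 2 of 15, where 19.5% of all were. It was 0 with DESeq2 size factors (5.42% of all tested genes), library size alone (5.49%) and no filter on reads (5.47%). A mean of at least 100 reads (8 genes tested, 3.7% of all) and 4-fold (1.66%) also gave 0. With shares this low, 0 of so few genes says little about the death genes. Drice had a log2 ratio of -0.12 with library size alone, against 0.07 under TMM scaling, because all ratios then fall by 0.19. The antagonist sum as a share of Diap1 ranged from 13.9% to 16.2% with each library alone. It was 14.7% with all hid reads on hid-RA, a setting chosen after seeing the data, and 15.3% from reads. Reads are not divided by transcript length, so the makeup of that sum differed from the one in TPM. From reads, rpr made up 23.2% and 17.5% of it and hid 65.8% and 70.9% in replicates 1 and 2. The effector caspase sum over Dronc ranged from 1.14 to 1.61. Genes with about 100 reads, grim and skl, are limited by depth. No paired analysis was possible because all libraries belong to 1 group. Ratios between the libraries need both, so neither can be left out of them.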
